A study of Mus musculus with 9 samples.

Results

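The genes described here build the cytoskeleton of neurons and of their precursors: the neurofilament chains Nefh, Nefm and Nefl, the related neuronal filament Ina, the progenitor filaments Nes and Vim, the microtubule proteins Mtap2 (now called Map2) and Dcx, and the stathmins Stmn2 and Stmn4. They are 10 of the 21553 genes with counts, taken by their symbols. PolyA RNA was sequenced from N2A, an established mouse neuroblastoma line, harvested 48 hours after transfection of siRNA pools. The first experiment holds 1 library each for the joint Mbnl1 and Mbnl2 knockdown, the Nacc1 knockdown and the non-targeting control pool. The second holds 2 libraries each, with the letters a and b, for the Srrm4 knockdown, the Zfp871 knockdown and their own non-targeting control pool. All 9 libraries come from the same line under the same transfection reagent, the controls included. Nothing in the labels says that the 2 libraries of a group were separate cultures, so the p-values measure the spread between these libraries, which may be technical.

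Intermediate filaments give axons their calibre and cells their mechanical stability, and the chains in use change as a precursor becomes a neuron. Nestin and vimentin are the filaments of dividing neural precursors, whereas α-internexin (Ina) and the light, medium and heavy neurofilament chains (Nefl, Nefm, Nefh) mark neurons. MAP2 and doublecortin stabilise microtubules, and stathmins bind free tubulin and favour disassembly. Of the targets, Mbnl1 and Mbnl2 (muscleblind) and Srrm4 act on alternative splicing, while Nacc1 is a nuclear BTB-domain protein and Zfp871 belongs to the zinc fingers. By its title the study asks how transcription factors shape splicing networks.

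Libraries of the first experiment held 50086176 to 63715449 counts, and those of the second 44186088 to 61159670. Each targeted gene was lowest in its own knockdown: Mbnl1 at 45.2 CPM (counts scaled to the library's size, corrected by the TMM method) against 124 in control, Mbnl2 at 18.2 against 65.7, Nacc1 at 52 against 208, Srrm4 at 28.3 and 26.1 against 66.8 and 96.7, and Zfp871 at 7.17 and 5.08 against 17.6 and 26.2. In the Zfp871 knockdown libraries Srrm4 itself stood at 44.9 and 53.7 CPM, below both controls. All 12 markers of sympathetic and neuroblastoma identity averaged at least 1 CPM in every group. Of the 10 glial markers 2 did so, and the 8 immune markers summed to at most 1.57 CPM in any library, the highest being the Mbnl1 and Mbnl2 knockdown. The epithelial list summed to 24.7 to 38.4 CPM, with 2 of 7 genes tested and none called.

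The sequences below are those of the coding cassette exons whose inclusion is followed further on, and of the region upstream of Nes and of Mtap2, the members with the largest changes that passed the test in either direction. Both exons were matched to the GENCODE M21 annotation (GRCm38) by gene, length and the lengths of the flanking introns, and their letters come from its transcripts. In the exons, capitals mark 4-base cores known to be bound by muscleblind proteins, on the transcribed strand: TGCT, and also TGCC, also CGCT and also CGCC.
Mtap2 93-nt exon: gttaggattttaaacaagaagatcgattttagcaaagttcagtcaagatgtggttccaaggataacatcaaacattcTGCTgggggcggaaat
Stmn4 81-nt exon: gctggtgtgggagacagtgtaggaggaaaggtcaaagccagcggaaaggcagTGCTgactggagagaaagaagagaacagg
The Mtap2 exon (event MmuEX0029898) lies at chr1:66478101-66478193 in mm9, the build of the splicing tables, and at chr1:66431527-66431619 on the plus strand of GRCm38. It is coding throughout and stands in 4 annotated transcripts. It adds a microtubule-binding repeat to MAP2, the form known as MAP2d. The Stmn4 exon (event MmuEX0045498) lies at chr14:66975106-66975186 in mm9 and at chr14:66356269-66356349 on the plus strand of GRCm38, also fully coding. Each holds 1 of these cores, TGCT, at position 78 and position 53 from the exon's first base. At least 1 core stands in 69.6% of the 1394 annotated coding exons of 93 nt and in 62.7% of the 1442 of 81 nt, so its presence sets neither exon apart.

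RefSeq promoter sequences (GRCm38.p6) were matched for 5 of the 10 genes, Ina, Mtap2, Nes, Vim and Dcx. Capitals mark GGGCGG and GGACAGC on either strand, and each stretch ends before the first annotated exon.
Nes upstream region, chr3:87970843-87971077, plus strand: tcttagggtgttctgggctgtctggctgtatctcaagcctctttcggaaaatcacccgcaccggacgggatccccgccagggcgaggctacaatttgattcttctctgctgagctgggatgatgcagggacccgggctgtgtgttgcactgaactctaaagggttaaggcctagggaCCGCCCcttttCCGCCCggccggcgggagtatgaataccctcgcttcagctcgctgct
Mtap2 upstream region, chr1:66175079-66175272, plus strand: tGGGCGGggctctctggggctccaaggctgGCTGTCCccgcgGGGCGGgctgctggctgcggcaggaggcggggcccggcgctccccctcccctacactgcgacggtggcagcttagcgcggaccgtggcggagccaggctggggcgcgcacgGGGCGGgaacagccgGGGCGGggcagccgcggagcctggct
In the 250 bases before the start site, the GC box GGGCGG was found for Ina, Mtap2 and Nes and stands in 32.7% of all 32851 promoters. GGACAGC, a stretch of the REST site, was found for Mtap2 and stands in 5.28% of promoters. TATAAA was found for Vim and Dcx (12.4% of promoters) and CAGCTG for Ina (13% of promoters). The AP-1 site TGANTCA (6.75% of promoters) and CACGTG (6.02%) were found for none. No binding was measured in this series, so these matches describe the letters only.

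On the authors' cRPKM scale, which corrects reads for depth and mappable length and so allows genes to be compared, the levels spanned a wide range in the control library of the first experiment. Vim was highest at 851.59, above 99.6% of genes, followed by Stmn2 at 248.53, above 98.7%. Ina stood at 54.05, Nefh at 33.44, Stmn4 at 23.01 and Mtap2 at 10.96. Nes, at 2.6, was above 54% of genes. Dcx (0.08), Nefl (0.06) and Nefm (0.05) came last, and with 1 library the spread behind this order is unknown.

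The heavy neurofilament chain was thus well measured in cells where its light and medium partners were close to the limit of detection. Nefm had 4 to 11 counts and Nefl 8 to 12 in the first experiment. In the second these ranges were 1 to 10 and 0 to 5. Neither passed the filter on low counts. In the library Srrm4 knockdown a, Nefl had 0 counts, which allows up to 0.0663 CPM from counting error alone. Dcx had 15 to 124 counts over all libraries and passed the filter. The other 7 genes had at least 426 counts in every library.

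**Figure D1:**
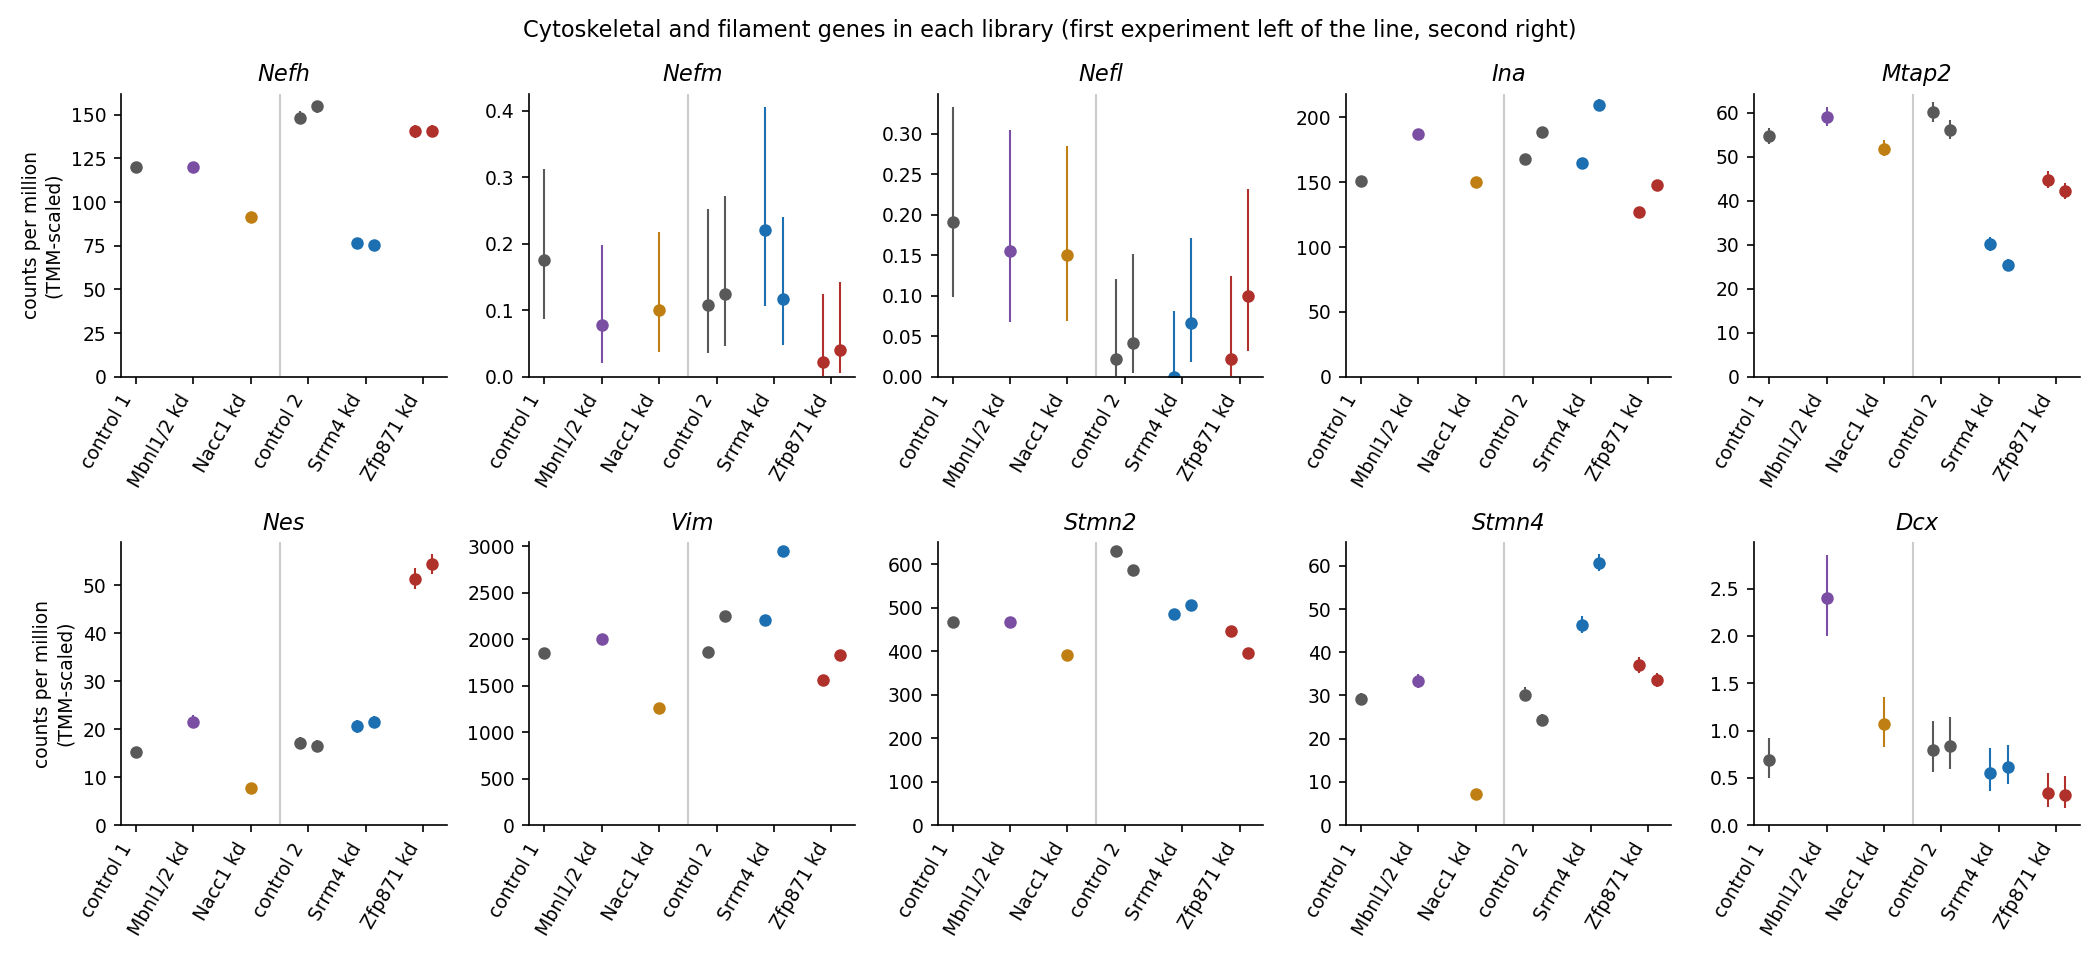
TMM-scaled CPM of each gene (vertical axes, linear and from 0) in each library, grouped by knockdown (kd) along the horizontal axes; bars are 95% exact Poisson intervals, which cover counting error only. Nes stands at 51.4 and 54.5 in the Zfp871 knockdown libraries and at 16.6 to 21.5 in the other libraries of the second experiment, and Nefh and Mtap2 are lowest in the Srrm4 knockdown libraries.

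Srrm4 knockdown lowered the transcripts of the neurofilament heavy chain and of MAP2 to about 50% of control and raised those of Stmn4. Of the 8 members tested, 2 fell, 1 rose and 5 did not pass; over all 12378 genes tested, 4.7% were called, 3.29% lower and 1.41% higher (edgeR quasi-likelihood test, Benjamini-Hochberg adjusted p under 0.05). The median log2 difference over all genes tested was -0.00.

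Nefh (ENSMUSG00000020396) had 148 and 155 CPM in the controls and 76.4 and 75.5 in the Srrm4 knockdown. Both knockdown libraries lay far below both controls, and the libraries within a group differed little. The level was 1.99-fold lower in the knockdown (SE 0.08 on the log2 scale, n = 2 against 2, edgeR adjusted p = 0.0174). With any 1 of the 6 libraries left out, the log2 fold change lay from -1.02 to -0.97, but the edgeR adjusted p rose to 0.0818 without control b, 0.106 without Srrm4 knockdown b, 0.0777 without Zfp871 knockdown a, 0.0815 without Zfp871 knockdown b and 0.081 with only the 4 libraries compared.

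Mtap2 (ENSMUSG00000015222) had 60.2 and 56.1 CPM in the controls and 30.1 and 25.4 in the Srrm4 knockdown. Here too the groups did not overlap. The log2 fold change was -1.07 (SE 0.11, n = 2 against 2, edgeR adjusted p = 0.0194), with estimates from -1.20 to -0.95 when 1 library was left out. The edgeR adjusted p passed 0.05 without control a (0.0603), control b (0.0836), Srrm4 knockdown b (0.124), Zfp871 knockdown a (0.0777) or Zfp871 knockdown b (0.0815), and with only the 4 libraries (0.081).

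Stmn4 (ENSMUSG00000022044) had 30.2 and 24.3 CPM in the controls and 46.4 and 60.6 in the Srrm4 knockdown. The knockdown libraries were both higher, yet they also differed from each other by more than those of Nefh or Mtap2. The log2 fold change was 0.97 (SE 0.17, n = 2 against 2, edgeR adjusted p = 0.0354) and ranged from 0.77 to 1.15 when 1 library was left out. The edgeR adjusted p was 0.0693 without control a, 0.127 without control b, 0.188 without Srrm4 knockdown b, 0.0905 and 0.0929 without Zfp871 knockdown a or b, and 0.0912 with only the 4 libraries.

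The other stathmin, Stmn2, which acts in axon growth and repair, did not pass the test under Srrm4 knockdown. It had 631 and 587 CPM in the controls and 487 and 507 in the Srrm4 knockdown, with a log2 fold change of -0.29 (SE 0.10, edgeR adjusted p = 0.127; DESeq2 adjusted p = 0.0442). Of the 12 sympathetic markers 1 fell under Srrm4 knockdown, Hand2, by 0.54 (SE 0.10, edgeR adjusted p = 0.0367), and the list summed to 3414 to 4014 CPM against 3881 to 4655 in the controls. Among the filaments, Ina had 168 and 189 CPM in the controls against 165 and 210 (a log2 fold change of 0.07, SE 0.15). Vim had 1860 and 2250 against 2206 and 2944 (0.33, SE 0.17), and both genes' groups overlapped. Nes had 17.1 and 16.6 CPM in the controls against 20.6 and 21.5, which did not overlap, but its log2 fold change of 0.32 (SE 0.09) had an edgeR adjusted p of 0.102. Dcx had 37 and 40 counts in the controls against 25 and 37 in the knockdown (log2 fold change -0.48, SE 0.31), and did not pass (edgeR adjusted p = 0.396).

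Under Zfp871 knockdown nestin rose about 3-fold and Stmn2 fell, while the heavy neurofilament chain did not pass the test. Of the 8 members tested, 1 rose, 1 fell and 6 did not pass; over all genes tested 2.89% were called, 0.751% higher and 2.14% lower.

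Nes (ENSMUSG00000004891) had 17.1 and 16.6 CPM in the controls and 51.4 and 54.5 in the Zfp871 knockdown. Both knockdown libraries lay far above both controls, and the libraries within a group were close. The log2 fold change was 1.65 (SE 0.10, n = 2 against 2, edgeR adjusted p = 0.0156). The estimate ranged from 1.62 to 1.69 when 1 library was left out; the edgeR adjusted p was 0.0882 without control b, 0.103 without Zfp871 knockdown a and 0.241 without Zfp871 knockdown b.

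Stmn2 (ENSMUSG00000027500) had 631 and 587 CPM in the controls and 446 and 397 in the Zfp871 knockdown. The groups did not overlap, and the log2 fold change was -0.53 (SE 0.10, n = 2 against 2, edgeR adjusted p = 0.0481). This call lies next to the threshold: the edgeR adjusted p was 0.0567 on total counts without TMM factors, 0.0904 with only the 4 libraries, 0.167 and 0.138 without control a or b, 0.0816 and 0.0831 without Srrm4 knockdown a or b, and 0.15 and 0.337 without Zfp871 knockdown a or b.

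The members that did not pass were Mtap2, with 44.8 and 42.2 CPM in the Zfp871 knockdown (-0.42 on the log2 scale, SE 0.11, edgeR adjusted p = 0.106; DESeq2 adjusted p = 0.0304), and Dcx, with 15 and 16 counts against 37 and 40 in the controls (-1.32, SE 0.33, edgeR adjusted p = 0.0941). Ina had 127 and 148 CPM (log2 fold change -0.38, SE 0.15), Vim 1559 and 1827 (-0.28, SE 0.17) and Stmn4 37 and 33.6 (0.37, SE 0.17). Nefh had 141 in both libraries, a log2 fold change of -0.10 (SE 0.08, edgeR adjusted p = 0.502). For each of these 6 genes the knockdown libraries lay outside the range of the controls. How often this holds over all genes tested was not counted, so no change is read from it.

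Markers of other states moved in the same libraries. Of the 5 muscle markers tested, 2 rose under Zfp871 knockdown: Acta1, skeletal muscle actin, from 0.281 and 0.292 to 3.69 and 5.12 CPM, and Actc1, cardiac actin, from 6 counts in each control to 56 and 61 counts. The muscle list summed to 307 to 323 CPM in the Zfp871 knockdown, 302 to 338 in the Srrm4 knockdown and 248 to 268 in the controls. Most of each sum was Myh3, an embryonic myosin heavy chain, at 247 to 337 CPM in the second experiment. The muscle regulator Myog had 0 counts in 5 of the 6 libraries and 1 in control a, and Ckm, muscle creatine kinase, had 0 in both Zfp871 knockdown libraries. The mesenchymal list summed to 32 to 104 CPM in the Zfp871 knockdown, 4.55 to 8.97 in the Srrm4 knockdown and 6.37 to 17.4 in the controls. Nearly all of that was Acta2, smooth muscle actin, at 29.1 and 102 CPM, whereas Col3a1, Twist1 and Prrx1 had 0 counts in every library; none of its 5 tested genes was called. The sympathetic list summed to 2839 to 3205 CPM in the Zfp871 knockdown, and 2 of its 12 genes fell, the noradrenaline enzyme gene Dbh from 110 and 72.9 to 22.9 and 15.9 CPM and the transcription factor gene Phox2a from 259 and 206 to 103 and 71.9. The part of these shifts in the Nes and Stmn2 results was not tested; in bulk RNA, fewer cells with a transcript and less of it per cell cannot be told apart.

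The direct comparison of the knockdowns separated 3 members. Its difference takes no control value, but the filter, the scaling and the spread came from the fit of all 6 libraries. Nes, Nefh and Mtap2 were higher in the Zfp871 than in the Srrm4 knockdown, none of the 8 was lower, and over all genes 11.1% were called, 5.53% higher and 5.57% lower. The log2 differences were 1.33 for Nes (SE 0.09, edgeR adjusted p = 0.00792), 0.89 for Nefh (SE 0.08, edgeR adjusted p = 0.00865) and 0.65 for Mtap2 (SE 0.11, edgeR adjusted p = 0.0233). With only the 4 knockdown libraries fitted, the edgeR adjusted p was 0.0137 for Nes, 0.0137 for Nefh and 0.0348 for Mtap2. So the effects on these genes differed between the knockdowns. For Mtap2 the Zfp871 knockdown libraries lay between the controls and the Srrm4 knockdown. Without Srrm4 knockdown b, Zfp871 knockdown a or Zfp871 knockdown b, the edgeR adjusted p was 0.0522, 0.0596 and 0.104 for Nes, 0.0565, 0.0596 and 0.104 for Nefh, and 0.124, 0.119 and 0.142 for Mtap2. Vim (log2 difference -0.61, edgeR adjusted p = 0.0747) and Stmn4 (-0.60, edgeR adjusted p = 0.0714) were each lower in both Zfp871 knockdown libraries than in both Srrm4 knockdown libraries without passing. Ina (-0.44), Stmn2 (-0.24) and Dcx (-0.84) did not pass either. DESeq2 called 3 of these 5, Vim (adjusted p = 0.00896), Stmn4 (adjusted p = 0.0151) and Ina (adjusted p = 0.0458). It also called more of all genes in this contrast, 2430 against 1374 with edgeR.

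**Figure D2:**
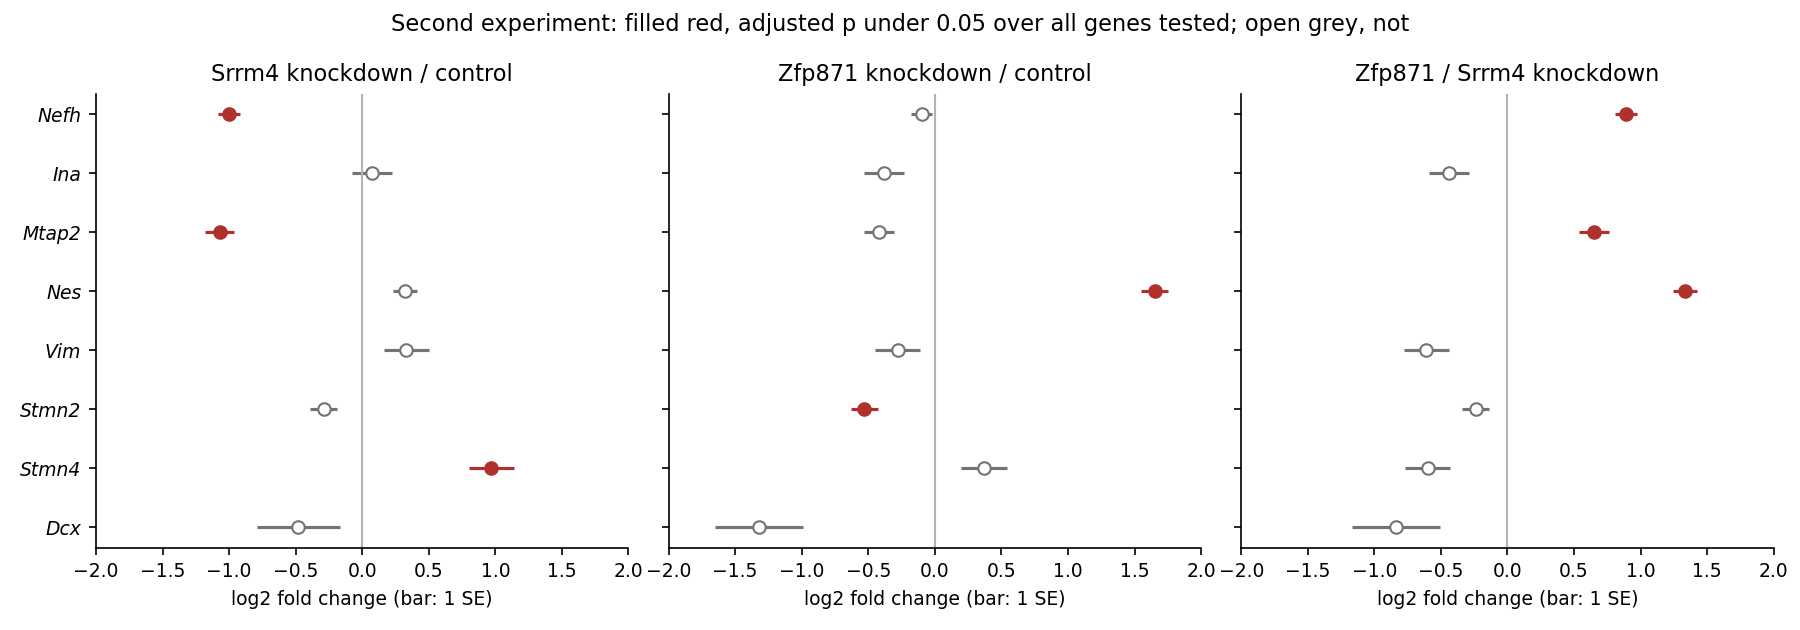
Log2 fold change of the 8 members tested (horizontal axes; bars are 1 SE) in the 3 contrasts of the second experiment. Filled red points have an edgeR adjusted p under 0.05 over all genes tested: Nefh, Mtap2 and Stmn4 under Srrm4 knockdown, Nes and Stmn2 under Zfp871 knockdown, and Nefh, Mtap2 and Nes between the knockdowns.

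In the first experiment each group is 1 library, so no difference has a replicate check and no test is given. A size rule took its place: a log2 fold change beyond 1 in either direction, and 50 counts or more in either library. Under Mbnl1 and Mbnl2 knockdown 1 member passed, Dcx, in the higher direction. Of the 11604 genes with enough counts 1.02% passed, 0.758% higher and 0.259% lower. Under Nacc1 knockdown 1 member passed, Stmn4, in the lower direction. Of 11580 genes 3.38% passed, 0.406% higher and 2.97% lower. These comparisons share the control library.

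Dcx had 43 counts in the control, 124 in the Mbnl1 and Mbnl2 knockdown and 64 in the Nacc1 knockdown. The ratio of scaled counts to control was 3.51 (95% counting interval 2.46 to 5.09) and 1.56 (1.04 to 2.35). Stmn4 had 1839 counts in the control, 1717 in the Mbnl1 and Mbnl2 knockdown and 426 in the Nacc1 knockdown. Its control level was 4.12 times that in the Nacc1 knockdown (3.71 to 4.59), and the authors' deposited table gives a log2 fold change of -1.90. The direction differs from that under Srrm4 knockdown, where Stmn4 rose.

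Both progenitor filaments were lower in the Nacc1 knockdown library without passing the rule. Nes had 955 counts in the control and 467 in the Nacc1 knockdown, a log2 fold change of -0.96 just short of the limit. Vim had 116345 and 75389 (-0.56). Nefh had 7573 and 5487 counts (-0.40) and Stmn2 29377 and 23547 (-0.25), while Ina (-0.01) and Mtap2 (-0.08) were close to control. Under Mbnl1 and Mbnl2 knockdown Nes had 1114 counts, a ratio of 1.42 (1.3 to 1.55), and Ina 9652 against 9464, a ratio of 1.24 (1.21 to 1.28). Nefh, Mtap2, Vim, Stmn2 and Stmn4 had ratios of 0.994 to 1.14. Of the 4 mesenchymal markers with enough counts, 2 were past the rule in the Nacc1 knockdown, Pdgfrb (-1.61) and Acta2 (-1.36), and 1 in the Mbnl1 and Mbnl2 knockdown, Acta2 (-3.06), all lower. The immune gene Cd68 was past the rule in the Mbnl1 and Mbnl2 knockdown, higher by 1.21 on the log2 scale, where the immune list summed to 1.57 CPM against 0.573 in the control; its part in the Dcx value was not tested. The mesenchymal list summed to 9.22 CPM in the control, 7.23 in the Mbnl1 and Mbnl2 and 4.67 in the Nacc1 knockdown, and its part in the values of Vim and Nes was not tested. The ratio intervals cover counting error only and say nothing of the spread between libraries. In the second experiment the coefficient of variation within a group was 11.2% to 20.3% for Vim and 6.84% to 18.9% for Stmn4.

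**Figure D3:**
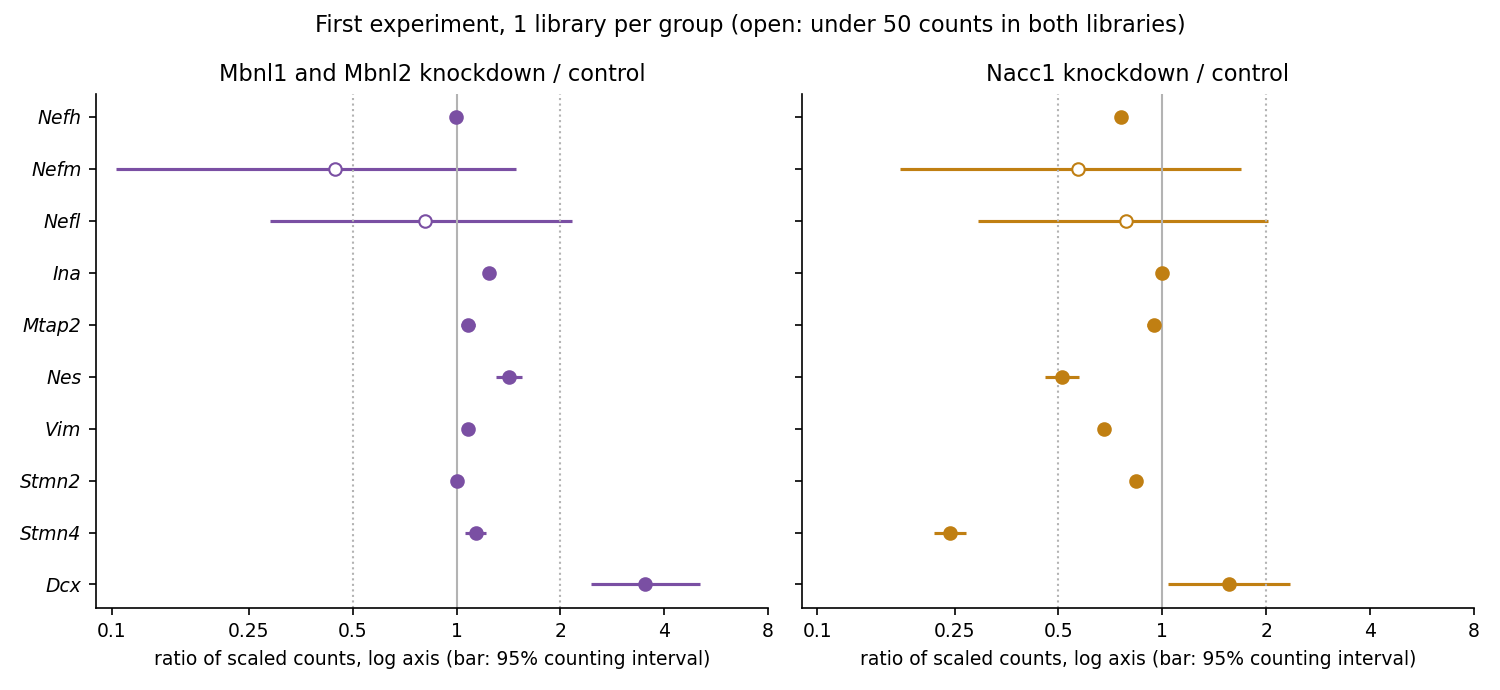
Ratio of scaled counts in each knockdown library to the control library of the first experiment (horizontal axes, log scale; bars are 95% counting intervals; dotted lines at 0.5 and 2). Among the filled points, Dcx at 3.51 in the Mbnl1 and Mbnl2 knockdown and Stmn4 at 0.243 in the Nacc1 knockdown lie outside the dotted lines; Nefm and Nefl, drawn open, have under 50 counts.

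Splicing of these genes was followed by PSI, percent spliced in: of the reads that inform on a segment, those from transcripts that contain it. The splicing tables list 16 cassette exons in 6 of the 10 genes, 9 of them in Mtap2. In each experiment 15 had at least 10 reads in every library. PSI lay between 2 and 98 in at least 1 library for 8 of these in the first and 9 in the second experiment. The exception was a 3-nt microexon of Dcx, with 0 to 2 reads. No member exon was called in the second experiment. The Srrm4 knockdown had 25 of 20266 exons called (0.123%; edgeR adjusted p under 0.05 and a PSI difference of at least 10 points), and the Zfp871 knockdown and the direct comparison 0 each (0%). At an unadjusted p under 0.05 the edgeR fit held 1157, 946 and 1080 exons in these 3 comparisons, and limma on the logit of PSI called 11 under Srrm4 and 0 under Zfp871 knockdown.

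Most Mtap2 transcripts lacked the longest of its cassette exons. This 2903-nt exon had a PSI of 0 to 3.17 across all 9 libraries, at 44 to 127 reads. Its neighbours of 150, 132 and 110 nt reached at most 8.7. The software vast-tools, which quantified splicing, gives the junction reads of these exons a balance code other than OK in most libraries. It does so in 9 of 9 for 2903 and 132 nt, in 8 for 150 nt and in 7 for 110 nt. Most of these codes are Bn, which also stands at 110 nt in both Zfp871 knockdown libraries, where inclusion reads were 0. They are therefore not read as imbalance. The exons of 114, 78 and 65 nt were included at 94.9 to 100. A 63-nt exon of the 5′ UTR had a PSI of 15.9 to 18.6 in the first experiment. In the second it had 7.88 to 11.9. Vimentin exons of 61 and 96 nt and the cassette exon of Nes stood at 100 in every library, and a 71-nt exon of Stmn2 at no more than 0.0799. Of these exons, those of 2903, 150, 132, 110, 65 and 63 nt in Mtap2 were tested in the second experiment and none was called. In the first the size rule covered those of 132, 110, 78, 65 and 63 nt and none passed. The remaining exons lay outside the PSI range of 2 to 98 in every library and were not tested.

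The 93-nt exon of Mtap2, printed above, was the member exon with the largest differences. In the first experiment it had a PSI of 40.6 in the control (95% Clopper-Pearson interval 33.3 to 48.1), 18.8 in the Mbnl1 and Mbnl2 knockdown (11.8 to 26.8) and 20.4 in the Nacc1 knockdown (13.8 to 28.1). The differences of -21.9 and -20.3 points passed the size rule: at least 20 reads in all 3 libraries, 20 points and intervals that do not overlap. That rule was met by 1.1% of 17504 exons in the Mbnl1 and Mbnl2 and by 1.03% in the Nacc1 knockdown, which share the control. The authors' deposited table also marks this exon as differential in both.

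In the second experiment the same exon stood at 60.8 in control a and 24.7 in control b. The knockdown libraries lay between these controls: 54.1 and 44.3 for Srrm4, and 51.5 and 43.6 for Zfp871. The PSI differences were 6.41 points (edgeR adjusted p = 0.987) and 4.8 points (edgeR adjusted p = 1). The gap of 36.2 points between the control libraries exceeded either difference seen in the first experiment. The table also holds a trimmed version of control a, which was not used here. Only 29 of the 20266 exons tested (0.143%), this exon included, differed as much between controls a and b, where the median was 1.89 points. Among 5045 exons with 80 to 160 reads in control a, 2 did, this exon again included. In 5 of the 6 libraries of the second experiment, and in none of the first, vast-tools marks the reads on this exon's junctions as unbalanced. Whether that bears on the gap was not tested.

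In the first experiment the introns on either side of this exon held the highest retention among the members' introns, of which 36 of 47 could be measured. The 5998-nt intron before it was retained at 9.84% in the control, 18.5% in the Mbnl1 and Mbnl2 and 26.7% in the Nacc1 knockdown, on 32 to 67 reads, and at 2.27% to 10.7% in the second experiment. The 1894-nt intron after it stood at 14%, 29.4% and 18.2%, on 22 to 49 reads. In the second experiment it had only 8 to 17 reads. There control b, with 10 reads, stood at 25% against 3.06% in control a. Srrm4 knockdown b, with 15 reads, also stood at 25%, against 6.62% in a. The Zfp871 knockdown libraries a and b had 5.3% and 7.13%. The introns of Vim, Stmn2 and Ina stayed at or below 1.66% in every library.

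Stmn4 had a pair of variable exons. The 81-nt exon printed above stood at 16.8 in the control of the first experiment (13 to 21.3), 29 in the Mbnl1 and Mbnl2 knockdown (24.1 to 34.5) and 22.9 in the Nacc1 knockdown (13.8 to 33.8). The difference of 12.3 points under Mbnl1 and Mbnl2 knockdown had intervals that do not overlap but fell short of 20 points; the authors' deposited table marks it as differential. In the second experiment it stood at 12.9 and 17.8 in the controls, 17.5 and 20.8 in the Srrm4 knockdown and 14.4 and 19.3 in the Zfp871 knockdown, with differences of 3.79 points (edgeR adjusted p = 0.884) and 1.54 points (edgeR adjusted p = 1). A 53-nt exon, of which 18 bases are coding in 2 annotated transcripts and all 53 in another, had a PSI of 14.3 to 15.6 in the first experiment. In the second it had 12.6 to 19.4. Neither exon was called under Srrm4 knockdown, where Stmn4 transcripts rose. Neither passed the size rule in the Nacc1 knockdown, which had 75 reads on the 81-nt and 56 on the 53-nt exon. From control values of 16.8 and 14.7 a fall of 20 points was not possible, so that rule could not detect lower inclusion.

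**Figure D4:**
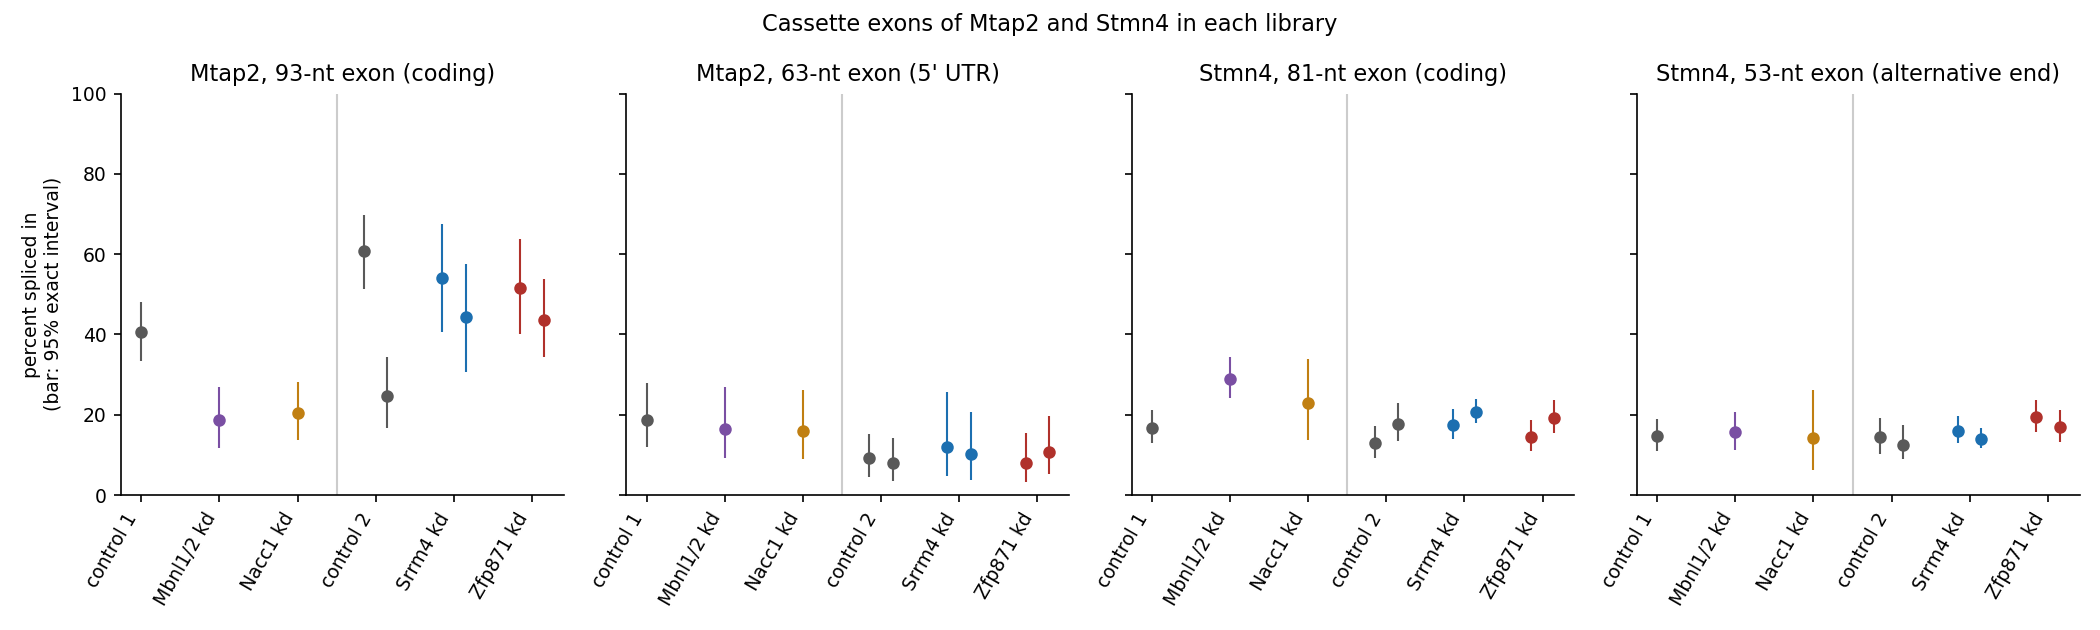
Percent spliced in (vertical axis, 0 to 100) of 4 cassette exons of Mtap2 and Stmn4 in each library, grouped by knockdown (kd); bars are 95% exact (Clopper-Pearson) intervals, which cover counting error only. The 93-nt exon of Mtap2 stands at 18.8 and 20.4 in the knockdowns of the first experiment against 40.6 in its control, and the control libraries of the second experiment lie apart at 60.8 and 24.7.

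Few relatives of these genes passed the test, as did few of all genes. Over all genes tested, 4.7% were called under Srrm4 and 2.89% under Zfp871 knockdown, and 11.1% between the knockdowns. The lists hold genes chosen by function, and their counts are read against the share called over all genes given above. Of 15 tested microtubule-associated and stathmin relatives, 0 were called under Srrm4 knockdown (median log2 fold change -0.21) and 1 fell under Zfp871 knockdown (median -0.17), Mtap9 by 0.89 (SE 0.11, edgeR adjusted p = 0.0228). Under Srrm4 knockdown 12 of the 15 had a log2 fold change below 0. Mtap7d1 was the relative that differed between the knockdowns, higher by 0.54 under Zfp871 (SE 0.12, edgeR adjusted p = 0.0417). None of the 11 tested tubulins was called in any contrast, with medians of -0.03 and -0.02; tubulin genes share near-identical sequence, so their counts are uncertain. None of the 10 intermediate filament relatives was called under Srrm4 or Zfp871 knockdown (medians -0.13 and -0.20), and Lmnb2, a nuclear lamin, was higher by 0.45 in the Zfp871 than in the Srrm4 knockdown (SE 0.10, edgeR adjusted p = 0.0417).

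Of the 5 lists, the growth cone genes had the most calls in the second experiment. Of 11 tested, 3 fell under Srrm4 knockdown, Marcksl1 by 0.77 (SE 0.11), Dpysl5 by 0.57 (SE 0.09) and the actin-binding drebrin gene Dbn1 by 0.54 (SE 0.10), with edgeR adjusted p of 0.0276, 0.0308 and 0.0412. Under Zfp871 knockdown 2 fell, the collapsin response mediators Dpysl5 by 0.93 (SE 0.09, edgeR adjusted p = 0.0223) and Crmp1 by 0.50 (SE 0.09, edgeR adjusted p = 0.0481). Directly compared, Marcksl1 (0.80) and the actin bundler Fscn1 (0.49) were higher and Dpysl2 (-0.42) and Crmp1 (-0.41) lower in the Zfp871 knockdown. The medians of this list were -0.10 under Srrm4 and -0.15 under Zfp871 knockdown.

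Of 16 other progenitor genes tested, 8 had a log2 fold change above 0 and 8 below under Zfp871 knockdown. None rose, where 0.751% of all genes did, and 2 fell, Sox9 by 0.85 (SE 0.13, edgeR adjusted p = 0.0355) and the receptor Notch2 by 0.80 (SE 0.14, edgeR adjusted p = 0.0419), with a list median of -0.06. Under Srrm4 knockdown 1 fell, the RNA-binding protein gene Msi1, by 0.87 (SE 0.13, edgeR adjusted p = 0.0295), with a median of -0.09. Between the knockdowns Id3 (1.17) and Msi1 (1.02) were higher and Prom1 (-1.57) lower under Zfp871.

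In the first experiment, by the size rule, the Mbnl1 and Mbnl2 knockdown held no gene of these 5 lists. The Nacc1 knockdown held 3, all lower: Tppp, a microtubule-bundling protein gene (log2 fold change -1.40), the intermediate filament gene Sync (-1.86) and the receptor Notch3 (-1.36). They were 1 of 15 microtubule-associated and stathmin relatives, 1 of 10 intermediate filament relatives and 1 of 14 progenitor genes with enough counts. Over all genes with enough counts 3.38% passed, 2.97% lower. The tubulin median there was -0.24, with 10 of 11 below 0, against a median of 0.01 over all genes.

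For each member called in the second experiment, the genes with the most similar 4 log2 fold changes were found among 9736 genes with a mean of at least 5 CPM. The measure is the Euclidean distance between the values against control under Srrm4, Zfp871, joint Mbnl and Nacc1 knockdown, and in each experiment both values share a control. Nearest to Nefh were Cadm4 (distance 0.16) and Sertad4 (0.19), and to Mtap2 Ahdc1 and Tmem176b (0.18 each). Nearest to Stmn2 were 6330439K17Rik (0.07) and Pcnxl2 (0.09). Nes and Stmn4 had no close match: the nearest were Phlda1 (0.58) and Pdlim7 (0.90) for Nes, and Anxa2 (0.78) and Sh2d3c (0.81) for Stmn4. These distances are descriptions without a test.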

How the data were processed

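The submitters' processing notes name the mouse build mm9, CASAVA 1.8 and edgeR, without roles; per the series design text, vast-tools quantified splicing. The sources used here do not give the aligner, gene counter or strand use. Per the file headers, the authors deposited raw counts per gene for each library, cRPKM values (an RPKM corrected for mappability), log2 fold changes and FDR values (adjusted p-values), and PSI in percent with text cells that end in inclusion and exclusion reads. The authors' TRUE or FALSE calls of differential splicing follow a rule that is not stated. Columns of the second experiment carry a letter that no label ties to a replicate number, so 1 measure per table was taken there: counts, and the reads behind PSI. Its cRPKM and PSI columns were not used; they are among 23 columns of per-library or mean values left out, which include a trimmed version of control a. The 1114 entries without counts were also left out. PSI was computed from the reads in both experiments; in the first it lay within 1 point of the deposited percent for 100% of exon values, to 3 digits.

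The members and gene lists were chosen with earlier results of these data known. Counts of the 6 libraries of the second experiment were fitted together with edgeR 4.0.16 in R 4.3.3 (filterByExpr, TMM factors, quasi-likelihood test, no replicate block), with Benjamini-Hochberg adjustment over 12378 genes. Exons needed at least 10 reads in each library and a PSI from 2 to 98 in 1 or more, and were tested with the edgeR quasi-likelihood test on the reads for and against inclusion, rounded, with 1 common dispersion. For the first experiment, with 1 library a group, log2 values used a prior count of 2, and the exons counted had at least 20 reads in all 3 libraries and the same PSI range. Intervals are 95% exact Poisson, Clopper-Pearson or conditional binomial intervals and reflect counting error alone, as PCR copies cannot be told from separate molecules; a count of 0 is given the limit of 3 counts. Both edgeR fits were tested on simulated data. Alternatives were DESeq2 1.42.0, limma 3.58.1, other filters and scalings, left-out libraries and a block by column letter.

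Named were all 10 members, every measured exon of theirs, the called genes of 5 function lists (at most 4 per list and comparison, by size) and the 2 genes of nearest pattern for each called member; marker genes were named for their values beside a result, after those were seen.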

Additional observations from a re-analysis of the deposited data

How the results depend on the processing

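Each group has at most 2 libraries, which limits every call here. The counts of genes called under Srrm4 knockdown, under Zfp871 knockdown and between the knockdowns (582, 358 and 1374) became 1750, 1334 and 2430 with DESeq2, and 0 and 178 for the first pair with only the 4 libraries compared. Leaving out 1 library gave 0 to 180, 0 to 211 and 0 to 1179 genes; a lone library is then assumed to vary like the other groups. Exons called under Srrm4 knockdown (25) became 16 with at least 20 reads, 11 with limma and 0 to 1 without 1 library. With a replicate block by column letter the genes called were 4565, 3854 and 5191 of the 12378 tested, and the exons under Zfp871 knockdown 1. The member calls under this block are read against these larger shares of all genes. No call of a member was lost under this block, and 12 were gained: Nes (edgeR adjusted p = 0.0115), Vim (0.00325) and Stmn2 (0.00579) under Srrm4 knockdown, Ina (0.00103), Mtap2 (0.0012), Dcx (0.00534), Vim (0.0103) and Stmn4 (0.025) under Zfp871 knockdown, and Ina (0.000149), Vim (5.75e-06), Stmn2 (0.0173) and Stmn4 (0.000488) between the knockdowns. The letters share no stated day or culture, although the deviations of same-letter libraries correlated over 12378 genes (r = 0.749, 0.662 and 0.637). In the first experiment 350 and 645 genes passed in the Mbnl1 and Mbnl2 and the Nacc1 knockdown with a minimum of 10 counts, against 118 and 391, and 436 and 462 exons with a limit of 10 points, against 193 and 180. Among members, the sign turned when 1 library was left out for Ina under Srrm4 knockdown (log2 fold change -0.12 to 0.23) and, in PSI points, for the Mtap2 exons of 93 nt (-11.7 to 24.5 under Srrm4, -13.3 to 22.9 under Zfp871 knockdown), 132 nt (-0.50 to 2.93 and -1.82 to 0.84) and 63 nt (-0.71 to 2.22 under Zfp871) and the 81-nt exon of Stmn4 (-0.94 to 4.01 under Zfp871); none of these was called under any setting. The cause of these changes was not tested.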
